A study of Danio rerio with 30 samples.

Results

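Spleens of adult zebrafish that had been given lipopolysaccharide (LPS) were compared between fish incubated at 24 °C and at 28 °C early in life. LPS, a molecule of the outer membrane of Gram-negative bacteria, sets off innate immune signalling, and the spleen is a lymphoid organ that filters the blood. The members are 10 of the 30 libraries of the series, selected by label, 5 labelled 24 °C with LPS (replicates 1, 2, 3, 6 and 8) and 5 labelled 28 °C with LPS (replicates 1, 2, 4, 5 and 8). All fish were of the AB strain, a wild-type laboratory line, and 100 days old. Embryos and larvae were kept at 24 or 28 °C. The labels also put adults at 28 °C, and it is unclear whether they mean the sampled fish or their parents. LPS from Pseudomonas aeruginosa was injected intraperitoneally under anaesthesia, 2 µl of a solution of 50 mg/ml, and the spleen was removed after 12 h. The 5 control spleens at each of the same temperatures serve as background, and the sources used here do not say whether controls were injected. The comparison asks whether early temperature leaves a difference in the microRNAs of the adult spleen during an immune response. Nothing in the labels states whether each replicate is its own fish. The p-values therefore cover the spread among these samples alone, which may be technical.

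MicroRNAs (miRNAs) are short RNAs that guide a silencing complex to messenger RNAs with a matching site and lower their stability or translation. Most of their pairing runs through a short stretch near the 5′ end called the seed, so miRNAs of one family share many targets. In immune tissue several miRNAs are induced by Toll-like receptor signalling and restrain it in turn, while others mark lymphocytes, red cells or the vessel wall. Values rest on read counts in the rows of the deposited table, where each row has one miRNA name. CPM are counts scaled to a common library size after edgeR's TMM scaling, which aligns libraries on their typical row. Zebrafish rows are named without a prefix in the text and with the prefix dre in the plots. Prefixes such as hsa (human), ssa (Atlantic salmon), gmo (Atlantic cod), oni (Nile tilapia), ola (medaka), ccr (common carp) or mmu (mouse) mark a row named after another species, and such rows are uncertain because the counting could divide reads among near-identical sequences. A number of libraries with reads is given for the row named, and other rows can hold reads of the same miRNA.

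The 24 °C libraries held 961405, 348141, 261435, 926566 and 300299 counts, and the 28 °C libraries 263371, 902746, 893255, 427451 and 3903189. The totals overlapped (ratio of geometric means 0.585, two-sided exact permutation test, p = 0.357). A count of 0 allows up to 2.73 to 7.75 CPM in the 24 °C libraries and 0.775 to 12.2 CPM in the 28 °C libraries, taking 3 counts as the limit and covering counting error only. Thinned to 261435 counts, the libraries showed 280 ± 67.9 rows with a count at 24 °C and 268 ± 85.7 at 28 °C (n = 5 each, SD, exact permutation p = 0.810). TMM factors were 1.06 to 1.49 at 24 °C and 0.932 to 1.09 at 28 °C (exact permutation p = 0.0159), so the choice of scaling touches each level compared here. The log2 difference of the median row between 24 and 28 °C was −0.09 with TMM, 0.06 with RLE scaling and 0.15 with plain totals, and a row's own difference is to be read against that. With 1 library left out the TMM value ran from −0.74 (without replicate 8 at 24 °C) to 0.17 (without replicate 8 at 28 °C). Whether medians of lists near that range are set apart from all rows is therefore not settled. miRNAs linked to leukocytes (miR-142, 150, 155, 181 and 223) held 2.22 to 5.69% of the counts of each library. The liver miRNA, miR-122, held 0.0501 to 0.219% at 24 °C and 0.00380 to 0.743% at 28 °C, and striated-muscle miRNAs reached 0.438% in replicate 4 at 28 °C. Their part in the results was not tested. In whole spleen, fewer cells of a type and less of a miRNA per cell cannot be told apart.

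In LPS-treated spleens miR-214, a miRNA of connective and mesenchymal tissue that shares a primary transcript with miR-199 in vertebrates, was higher at 24 than at 28 °C in all 4 of its tested rows. Its 2 most abundant rows did not overlap between the temperatures, and they were among 4 of the 364 tested rows (1.10%) without overlap. In the most abundant family, let-7, most rows were lower at 24 °C, though whether its median is set apart from all rows was not settled. No single row passed the adjusted threshold of 0.05 in the fit over all rows. That fit called 0 of 364 tested rows (0%, edgeR quasi-likelihood test with Benjamini-Hochberg adjustment), while 34 rows (9.34%) had an unadjusted p under 0.05. Of those 34 rows, 11 (3.02% of the 364 tested rows) were higher and 23 (6.32% of the 364) lower at 24 °C. DESeq2 called 14 rows and limma voom 7 of the same 364. Most of the DESeq2 rows had counts at a single temperature, among them ccr-miR-144 and mmu-miR-3963 with 2 reads each. The voom rows included all 4 miR-214 rows, which may hold reads of the same molecule. The others were miR-140-3p, miR-192 and chr13_8255. Only 3 of the 34 rows were counted in all 10 libraries, 25 were counted in 5 or fewer, and 18 had no count in one of the temperatures. Among the 96 rows with reads in every one of the 10 libraries, the median width of the 95% interval to either side was 1.75 on the log2 scale, against 4.03 for all tested rows. For the typical row, a difference smaller than that width had an interval that included 0. The intervals are unadjusted and rest on the fit over all 30 libraries. A difference beyond that width could thus still fail the adjusted threshold.

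**Figure D1:**
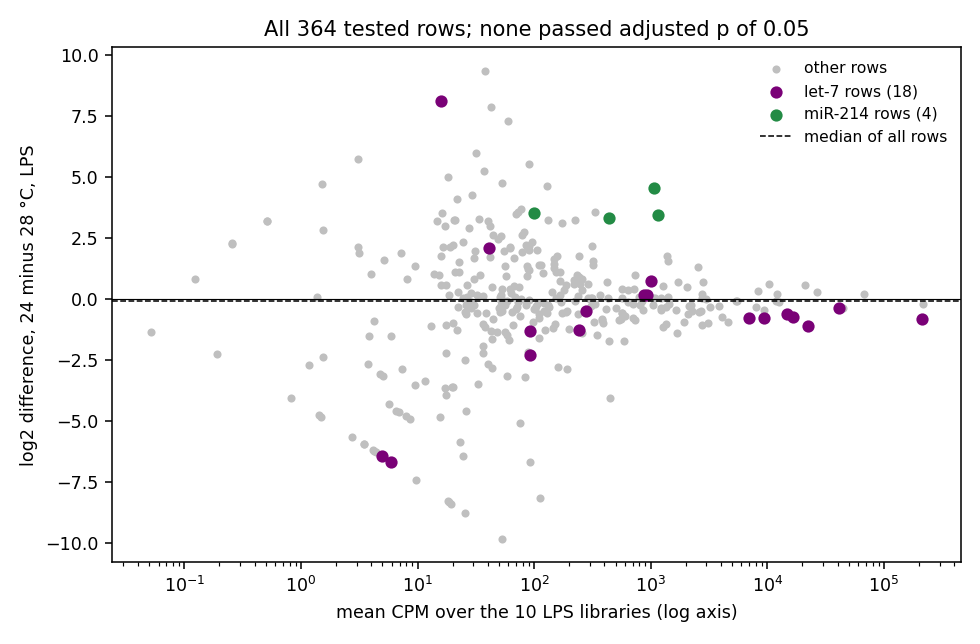
Log2 difference between 24 and 28 °C in LPS-treated spleens (vertical axis) against the mean CPM over the 10 libraries (horizontal axis, logarithmic), 1 point for each of the 364 tested rows. The 4 miR-214 rows (green) all lie above 0 and most abundant let-7 rows (purple) lie below it, while the scatter of all rows widens below about 100 CPM.

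The row named hsa-miR-214-3p held 363, 3019, 933, 3487 and 2361 CPM in the 24 °C libraries. In the 28 °C libraries it held 0, 1.13, 1.10, 216 and 212 CPM. Every 24 °C library lay above every 28 °C library, and 3 of the 28 °C libraries held at most 1 read of it. The log2 difference was 4.56 ± 1.40 (SE), with an adjusted p of 0.400 (edgeR), so the row did not pass over all rows. DESeq2 called it at adjusted p = 0.000582, limma voom at 0.000614, and edgeR fitted on these 2 groups alone at 0.0460. Its adjusted p ran from 0.000582 to 0.645 over the 22 alternatives fitted.

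The row named ssa-miR-214-3p held 1024, 2632, 1254, 3619 and 2083 CPM at 24 °C. At 28 °C it held 0, 0, 556, 0 and 433 CPM. The groups did not overlap here either, and the fitted difference was 3.42 ± 1.42 (SE, adjusted p = 0.400, edgeR). The zebrafish row miR-214 held 176, 587, 812, 1623 and 772 CPM at 24 °C and 4.08, 0, 338, 0 and 57.1 at 28 °C, with overlap in a single 28 °C library, replicate 4 (3.31 ± 1.79, adjusted p = 0.535, edgeR). The tilapia-named row, oni-miR-214, had reads in 4 of 5 libraries from 24 °C and in 1 of 5 from 28 °C. All 4 rows were thus higher at 24 °C, with a median log2 difference of 3.47 beside −0.09 for all tested rows. These rows may hold reads of one molecule, so they are not separate pieces of evidence.

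Summed over the 4 rows, miR-214 held 1661, 6593, 2998, 8885 and 5531 CPM at 24 °C with LPS. At 28 °C with LPS the sum was 4.08, 1.13, 895, 216 and 780 CPM. The 28 °C libraries fell into 2 with 1 read each and 3 with 100 reads or more, and even the highest of them lay below the lowest at 24 °C. The group means were 5134 ± 2871 and 379 ± 429 CPM (n = 5 each, SD). Control spleens showed the same order, with 1219 to 3913 CPM at 24 °C (2621 ± 1190) and 206 to 897 CPM at 28 °C (545 ± 314, SD, n = 5 each), again without overlap. The difference between temperatures was 2.54 larger (log2) in LPS than in control spleens for hsa-miR-214-3p and 0.55 larger for ssa-miR-214-3p, and neither interaction passed (edgeR, adjusted p = 0.651 and 0.963). The sum was formed after the rows had been seen and carries no test, and rows without overlap in controls were not counted. When rows of one miRNA name were added before the fit, miR-214-3p had a log2 difference of 4.05 and an adjusted p of 0.103 (edgeR).

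**Figure D2:**
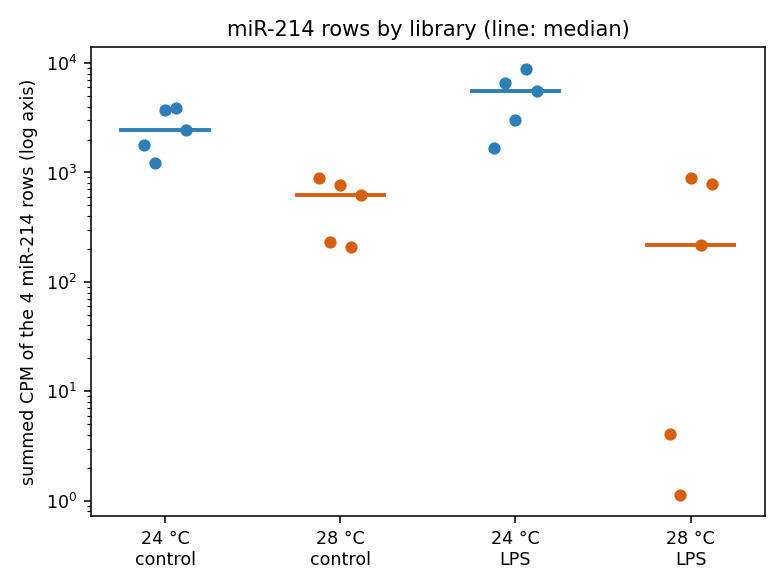
Summed CPM of the 4 miR-214 rows (vertical axis, logarithmic) in each library of the 24 and 28 °C groups, with 1 point per library and a line at the group median. The 24 °C libraries lie above all 28 °C libraries both in controls (1219 to 3913 against 206 to 897 CPM) and with LPS (1661 to 8885 against 1.13 to 895 CPM).

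miR-214 belongs to the list of vascular and stromal miRNAs, together with the smooth-muscle miRNAs miR-143 and miR-145, the endothelial miR-126 and the mesenchymal miR-199. Of its 24 tested rows 14 were higher and 10 lower at 24 °C, beside 46.7% higher and 53% lower among all rows, and its median was 0.74 beside −0.09 for all rows. Its share of all counts, before any scaling, was 2.51, 2.51, 3.07, 2.57 and 2.37% at 24 °C. At 28 °C the share was 1.83, 1.21, 1.18, 2.28 and 2.07%. No 28 °C library reached the lowest 24 °C library, and the ratio was 1.57. The two-sided exact permutation test gave p = 0.00794, the smallest that 5 against 5 libraries allow, and an adjusted p of 0.135 over 17 lists. A list that reached this smallest p alone could not pass over 17 lists, whatever its values. The adjusted p therefore cannot decide whether this list differs. Counted in zebrafish rows alone, the groups overlapped, at 1.52 to 2.09% against 1.07 to 2.19%. In controls the list held 1.68 ± 0.857% at 24 °C and 2.79 ± 1.04% at 28 °C (n = 5 each, SD), the opposite order of means. These control shares overlapped, at 0.614 to 2.77% against 1.18 to 3.72%, and were not tested.

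Within the list, the families did not move as one. miR-214 held 0.175 to 1.05% of counts at 24 °C against 0.000111 to 0.0910% at 28 °C. miR-199 held 0.243 to 0.566% against 0.0512 to 0.165%, also without overlap. In controls the miR-199 shares overlapped, at 0.0961 to 0.631% at 24 °C and 0.0713 to 0.457% at 28 °C. Of the families in all lists, miR-125 was the only other one without overlap in LPS-treated spleens. These family shares were not tested. The row miR-199-5p, the arm from the 5′ side of the hairpin, held 3245, 4474, 362, 1073 and 1419 CPM at 24 °C. It held 1762, 395, 602, 226 and 109 CPM at 28 °C, so the groups overlapped (1.77 ± 0.85 SE, adjusted p = 0.492, edgeR). The other families of this list showed no such separation. miR-143, the largest family of the list, held 0.679 to 1.28% of counts at 24 °C and 0.830 to 1.73% at 28 °C. Its main row held 12127, 5548, 8421, 5727 and 7536 CPM at 24 °C and 10298, 9382, 8158, 15940 and 10386 CPM at 28 °C (−0.46 ± 0.63 SE, adjusted p = 0.970, edgeR). miR-145, transcribed with miR-143, held 0.170 to 0.695% against 0.0477 to 0.387%, and miR-126 held 0.146 to 0.439% against 0.0487 to 0.444%. Without miR-214 the list held 1.52 to 2.62% at 24 °C and 1.09 to 2.26% at 28 °C, and the groups overlapped. The row gmo-miR-143-5p was counted in 2 libraries at 28 °C and in no library at 24 °C, with 99.4% of its 167 reads in 1 library.

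**Figure D3:**
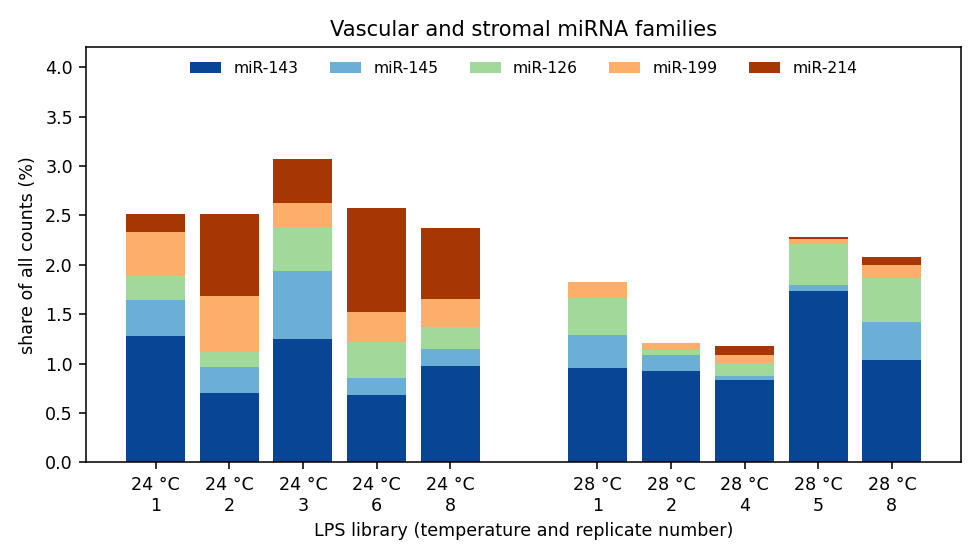
Share of all counts (vertical axis, percent) held by each of the 5 vascular and stromal miRNA families in the 10 LPS libraries, stacked, with temperature and replicate number on the horizontal axis. The 24 °C stacks reach 2.37 to 3.07% and the 28 °C stacks 1.18 to 2.28%, and the miR-214 segment is the one that is nearly missing in replicates 1 and 2 at 28 °C.

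Beside hsa-miR-214-3p and ssa-miR-214-3p, 2 further rows had no overlap between the temperatures, all 4 (1.10% of rows) higher at 24 °C. No row lay wholly lower at 24 °C (0%). ssa-miR-455-3p, of a family known from cartilage, held 833, 200, 1168, 302 and 541 CPM at 24 °C. At 28 °C it held 0, 30.5, 183, 0 and 41.1 CPM (3.57 ± 1.94 SE, adjusted p = 0.535, edgeR). In controls this row overlapped fully, at 0 to 501 CPM against 0 to 407 CPM. gmo-miR-125a-5p, of the miR-125 family, whose members lie in clusters with let-7 genes, held 25065, 25761, 26446, 22829 and 25109 CPM at 24 °C. It held 15544, 22309, 19127, 17635 and 10407 CPM at 28 °C (0.56 ± 0.46 SE, adjusted p = 0.831, edgeR). The cartilage miRNA miR-140-3p was chosen after its values were seen. It held 58.2, 528, 1186, 81.9 and 167 CPM at 24 °C and 4.08, 0, 0, 0 and 208 CPM at 28 °C. Replicate 8 was the single 28 °C library with more than a few reads of it. The difference was 3.23 ± 1.62 (SE, adjusted p = 0.527, edgeR), and 8.96 without that library (adjusted p = 0.0510). With all libraries, voom called miR-140-3p (7.03, adjusted p = 0.000143) and DESeq2 did not (3.56, adjusted p = 0.0802). The opposite arm, miR-140-5p, was counted in no 24 °C library and in 3 of 5 at 28 °C.

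let-7 miRNAs accumulate as tissues differentiate and repress growth-promoting genes such as lin28 and myc. Of the 18 let-7 rows 13 were lower at 24 °C, with a median log2 difference of −0.76 beside −0.09 for all rows, and 0 passed. The median row reached −0.74 with 1 library left out, and the let-7 median is not given for that fit. Whether let-7 is set apart from all rows was therefore not settled. Of the 5 let-7 rows with an unadjusted p under 0.05, hsa-let-7d-3p was higher at 24 °C. The others were let-7a, let-7f, let-7c-3p and let-7d-3p, all lower. let-7c-3p and let-7d-3p had 99.5 and 100% of their reads in 1 library. let-7a, the most abundant let-7 row, held 117468, 90576, 108747, 313101 and 146367 CPM at 24 °C. It held 333933, 210034, 221281, 282564 and 312318 CPM at 28 °C. The 24 °C libraries lay below all 28 °C libraries with 1 exception, replicate 6, which was among the highest. The difference was −0.81 ± 0.34 (SE, adjusted p = 0.400, edgeR).

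let-7f held 15165, 8408, 7705, 26681 and 13579 CPM at 24 °C. It held 28408, 18407, 24751, 36183 and 45858 CPM at 28 °C. Replicate 6 again stood inside the 28 °C range and the other 24 °C libraries below it (−1.10 ± 0.43 SE, adjusted p = 0.400, edgeR). let-7c-5p held 7558, 9446, 8845, 22755 and 13335 CPM at 24 °C and 22223, 11878, 17803, 22134 and 29871 CPM at 28 °C (−0.75 ± 0.39 SE, adjusted p = 0.533, edgeR). let-7d-5p (−0.62 ± 0.41 SE), let-7g (−0.78 ± 0.42), let-7h (−0.77 ± 0.43) and let-7b (−0.36 ± 0.43) leaned the same way with adjusted p from 0.535 to 0.956. With plain totals in place of TMM the differences shrank to −0.50 for let-7a, −0.82 for let-7f, −0.43 for let-7c-5p, −0.31 for let-7d-5p, −0.49 for let-7g, −0.44 for let-7h and −0.037 for let-7b, beside 0.15 for the median row. Over the 11 let-7 rows counted in all 10 libraries, 8 were lower at 24 °C (median −0.75), and in 8 of the 11 replicate 6 was the highest 24 °C library. In controls 9 of the same 11 rows were lower at 24 °C, with a median of −0.28. The let-7 family as a whole held 19.9 to 56.4% of counts at 24 °C and 32.9 to 48.2% at 28 °C, which overlap.

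The companions of let-7 did not follow it. The miR-125 family as a whole held 5.44 to 10.4% of counts at 24 °C and 3.34 to 5.35% at 28 °C, without overlap. In controls its share overlapped, at 4.41 to 8.60% at 24 °C and 1.82 to 6.81% at 28 °C. These family shares were not tested. miR-125b-5p held 3723, 3554, 2882, 3067 and 3950 CPM at 24 °C. At 28 °C it held 1416, 1438, 1549, 1212 and 5056 CPM. Each 24 °C library exceeded 4 of the 28 °C libraries, and replicate 8 at 28 °C exceeded all of them (0.69 ± 0.62 SE, adjusted p = 0.835, edgeR). miR-125a held 34286, 30679, 38548, 16647 and 25650 CPM at 24 °C against 23227, 27943, 25284, 25276 and 17410 CPM at 28 °C (0.29 ± 0.49 SE, adjusted p = 0.994, edgeR), and its sign turned without replicate 3 at 24 °C (−0.057). For the whole list of let-7, miR-98, 99, 100 and 125, 16 of 33 rows were higher and 17 lower, with a median of −0.13. Of the list's other rows with small p, hsa-let-7d-3p was counted in 2 libraries from 24 °C and none from 28 °C. The pooled counts put it at least 65.1-fold higher at 24 °C (25.6-fold without replicate 8 at 28 °C). This bound covers counting error only, not the spread between libraries, and 63.7% of the reads came from 1 library. The zebrafish row of the same arm, let-7d-3p, went the other way, with 227 reads, all in replicate 8 at 28 °C, and 0 at 24 °C. let-7c-3p was counted in 2 libraries from 28 °C and none from 24 °C.

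**Figure D4:**
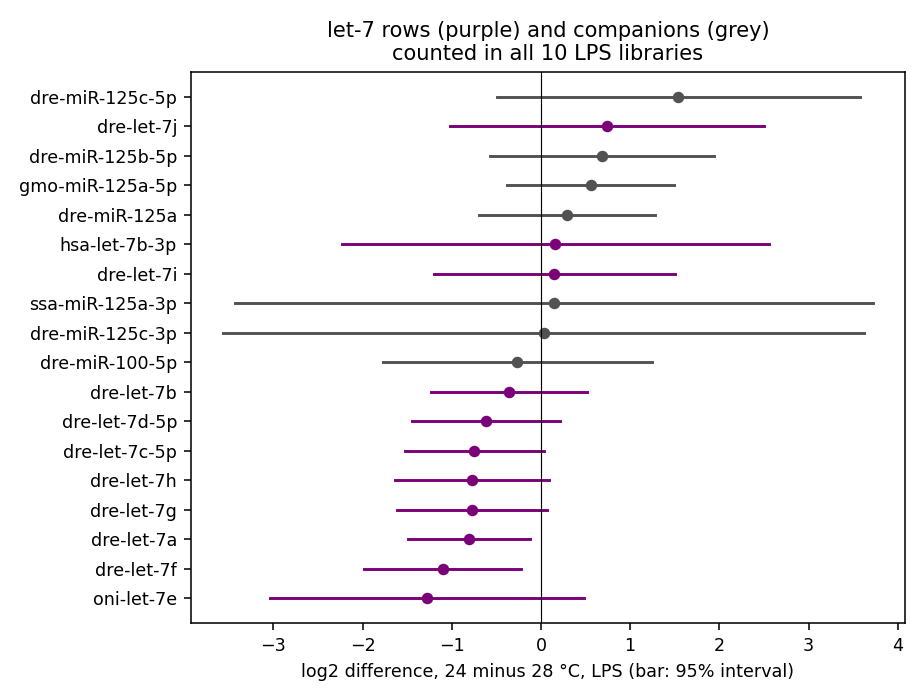
Log2 difference between 24 and 28 °C in LPS-treated spleens with its 95% interval (bars) for the let-7 rows (purple) and their companions (grey) counted in all 10 libraries. let-7f (−1.10) and let-7a (−0.81) have intervals below 0 before adjustment, and the miR-125a and miR-125b main-arm rows lie to the right of 0 with intervals that cross it.

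The 12 most abundant rows held 73.9 to 81.4% of the counts of each library, and 5 of them were let-7 rows. miR-92a-3p, of the miR-17-92 group tied to proliferation of blood cells, held 296965, 259282, 145609, 114137 and 174414 CPM at 24 °C and 212402, 323174, 316538, 171721 and 127728 CPM at 28 °C. The groups overlapped throughout (−0.22 ± 0.50 SE, adjusted p = 0.994, edgeR), and the sign turned with plain totals (0.083). miR-21, which rises in inflamed and healing tissue, held 142276, 78627, 49172, 28578 and 60033 CPM at 24 °C and 55772, 55718, 32487, 49011 and 116504 CPM at 28 °C. Replicate 1 at 24 °C and replicate 8 at 28 °C stood highest, and the groups overlapped (0.21 ± 0.47 SE, adjusted p = 0.994, edgeR). Its sign turned without any 1 of 5 libraries, with values down to −0.35.

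The row chr13_7690, reported under its deposited name, held 28096 to 63000 CPM at 24 °C and 20877 to 67946 CPM at 28 °C (medians 34268 and 54683). hsa-miR-1260b and hsa-miR-1260a ran in near-equal amounts in every library. The first held 7711, 8959, 8765, 9321 and 25307 CPM at 24 °C and 21750, 16223, 12636, 10600 and 4410 CPM at 28 °C. Replicate 8 was the highest of the 24 °C libraries and the lowest of the 28 °C libraries in both rows.

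**Figure D5:**
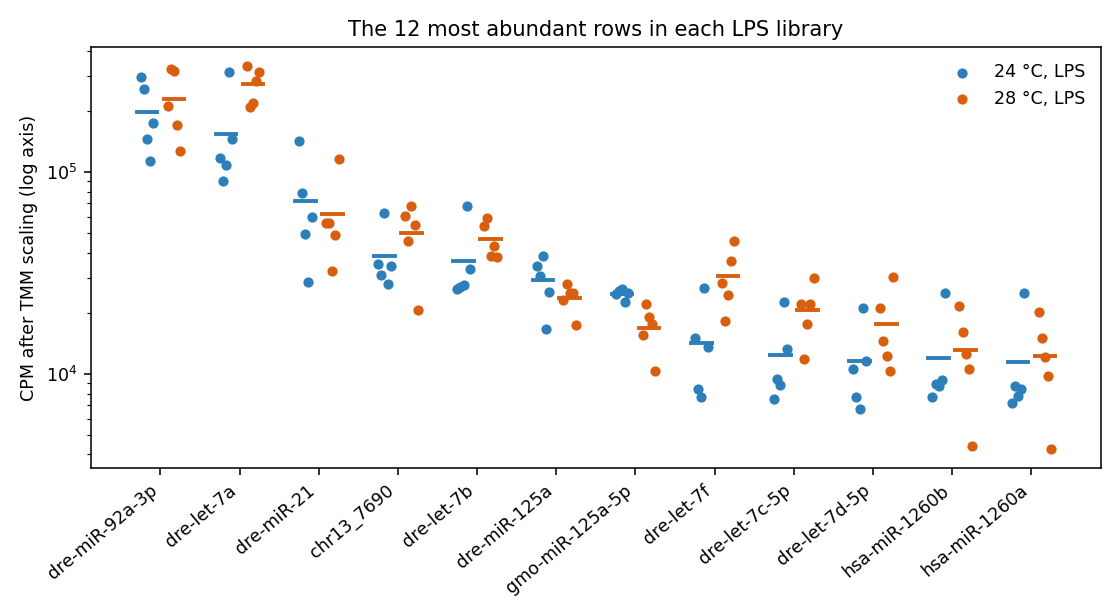
CPM of the 12 most abundant rows (vertical axis, logarithmic) in the 5 libraries of each LPS group, with a line at the group mean. The let-7a, let-7f and let-7c-5p points at 24 °C (blue) sit mostly below those at 28 °C (orange) apart from 1 high 24 °C library, and gmo-miR-125a-5p is the abundant row whose groups do not overlap.

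LPS signals through Toll-like receptors and NF-κB, which induce miR-146 and miR-155, and the list of inflammation-induced miRNAs adds miR-21, 132, 147, 212, 221 and 222. Of its 15 rows 5 were higher and 10 lower at 24 °C, 0 passed and 0 had an unadjusted p under 0.05, with a median of −0.51 beside −0.09 for all rows. The list's share of counts leaned the other way, at 9.80 ± 4.37% at 24 °C and 7.41 ± 3.55% at 28 °C (n = 5 each, SD, exact permutation p = 0.373). Most of that share was miR-21, with means of 9.03% at 24 °C and 6.42% at 28 °C, so the share mainly followed that miRNA. miR-146a, which represses adaptor proteins of Toll-like receptors, held 2844, 717, 905, 1082 and 1022 CPM at 24 °C. It held 1909, 2998, 1681, 999 and 4953 CPM at 28 °C. Apart from replicate 1 at 24 °C, the 24 °C libraries lay near or below the lowest at 28 °C (−0.93 ± 0.79 SE, adjusted p = 0.831, edgeR).

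miR-146b held 1462, 342, 600, 906 and 1159 CPM at 24 °C and 1497, 2257, 1178, 2387 and 1739 CPM at 28 °C. All 5 of the 24 °C libraries lay below the 28 °C median, and replicate 1 alone reached into the 28 °C range (−1.02 ± 0.88 SE, adjusted p = 0.831, edgeR). In controls the miR-146b levels were 8.98 to 949 CPM at 24 °C and 1741 to 5708 CPM at 28 °C, which do not overlap (−2.45 ± 0.91 SE, adjusted p = 0.157 with edgeR and 0.0424 with DESeq2). How many of the tested rows lacked overlap in controls was not counted. The share of the whole miR-146 family in controls overlapped, at 0.120 to 0.348% at 24 °C and 0.334 to 1.16% at 28 °C. Activated leukocytes make miR-155, whose zebrafish row had reads in 1 library from 24 °C and 2 from 28 °C. Over 4 rows named miR-155 the share was 0 to 0.0506% of counts at 24 °C and 0 to 0.0574% at 28 °C, with reads in 4 libraries of each temperature. The row miR-221-5p had reads in 1 and 3 libraries, and ola-miR-146a-5p in 2 and 3. miR-222a-3p, chosen after its values were seen, held 1314 to 3802 CPM in the 24 °C libraries and 1436 to 5049 CPM in the 28 °C libraries (−0.51 ± 0.57 SE, adjusted p = 0.956, edgeR).

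miR-462 and miR-731 form a pair that teleost fish induce with interferon. Of their 4 rows 1 was higher and 3 lower at 24 °C, with 0 passing. miR-462 held 2290, 1739, 3314, 545 and 2593 CPM at 24 °C and 1636, 1487, 1042, 3108 and 7960 CPM at 28 °C. The highest library was replicate 8 at 28 °C, and the log2 difference of −0.54 ± 0.68 (SE, adjusted p = 0.970, edgeR) became 0.21 without it. oni-miR-462 held 4786 to 8841 CPM at 24 °C and 3925 to 22009 CPM at 28 °C, with that same library highest. ssa-miR-731-3p was counted in 2 libraries from 24 °C and 3 from 28 °C.

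Leukocyte miRNAs showed no common direction. Of 22 rows 10 were higher and 12 lower at 24 °C (median −0.03, 0 passing), and their share of counts was 3.94 ± 1.49% at 24 °C and 2.98 ± 0.604% at 28 °C (n = 5 each, SD, exact permutation p = 0.278). The most abundant row, miR-181a-5p, active in lymphocyte development, held 23239, 20818, 3668, 8560 and 7951 CPM at 24 °C and 16728, 11978, 15098, 8454 and 4244 CPM at 28 °C. oni-miR-150, named for a miRNA of mature lymphocytes, held 3979 to 13798 CPM at 24 °C and 2838 to 14462 CPM at 28 °C. Both overlapped throughout. miR-181a-3-3p was counted in 2 libraries from 28 °C and none from 24 °C, at least 48.9-fold lower at 24 °C over the pooled counts. That bound covers counting error only, not the spread between libraries. ola-miR-142 was counted in 4 libraries from 24 °C and 2 from 28 °C.

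Red-cell and thrombocyte miRNAs (miR-144, 451 and 486) had 1 row higher and 4 lower at 24 °C. miR-451, needed for red-cell maturation, held 1122, 1204, 3337, 2167 and 2541 CPM at 24 °C and 7511, 1144, 4471, 1760 and 5505 CPM at 28 °C. The 3 highest values were from 28 °C, and the other 28 °C libraries lay inside the 24 °C range (−0.98 ± 0.89 SE, adjusted p = 0.835, edgeR). The share of the list was 0.356 ± 0.124% at 24 °C and 0.538 ± 0.281% at 28 °C (n = 5 each, SD, exact permutation p = 0.286). ssa-miR-144-5p was counted in 4 libraries from 24 °C and all 5 from 28 °C, oni-miR-451b in none and 1, and ccr-miR-144 in 1 and none.

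Among miRNAs of cell proliferation and growth, 0 rows passed. The miR-17-92 list, with miR-25, 93, 106 and 363, had 8 rows higher and 10 lower (median −0.12). miR-25-3p held 5175, 5114, 1342, 725 and 3329 CPM at 24 °C and 11644, 5688, 3202, 2901 and 7013 CPM at 28 °C. The 24 °C values reached from below the lowest 28 °C library to near its median (−0.96 ± 0.61 SE, adjusted p = 0.696, edgeR). hsa-miR-18a-3p was counted in 4 libraries from 24 °C and 2 from 28 °C, and ccr-miR-18c in none and 2. The cell-cycle list of miR-15, 16 and 30 had 7 rows higher and 14 lower (median −0.45). Its share of counts leaned the other way. The means were 3.61% at 24 °C and 2.81% at 28 °C (n = 5 each, exact permutation p = 0.317). Most of that share was miR-30, at 1.95 to 4.93% at 24 °C and 1.05 to 3.17% at 28 °C. The mean share of miR-15 was also higher at 24 °C (0.1969 against 0.1101%), and that of miR-16 was lower (0.4194 against 0.5807%). miR-16b, of a family that represses cyclins, held 692 to 2810 CPM at 24 °C (median 2021) and 1378 to 9045 CPM at 28 °C (median 2613), a difference of −1.08 ± 0.71 (SE, adjusted p = 0.696, edgeR). miR-30b was counted in 2 libraries from 24 °C and 4 from 28 °C.

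The hypoxia and stress list (miR-23, 24, 27, 34 and 210) had 6 rows higher and 14 lower (median −0.51), with 0 passing and 2 of 20 at an unadjusted p under 0.05. miR-27e was counted in 3 libraries at 24 °C, at up to 14.8 CPM, and in 4 at 28 °C, at up to 319 CPM. ccr-miR-27c-5p and ssa-miR-24a-4-5p were counted in replicate 8 at 28 °C and in no other of the 10 libraries. The epigenetic list of miRNAs that repress chromatin enzymes (miR-26, 29, 101, 148 and 152) had 4 rows in each direction. miR-26a-5p, a repressor of ezh2, held 3007, 2598, 4624, 2658 and 2268 CPM at 24 °C and 5369, 3171, 3221, 4208 and 9396 CPM at 28 °C (−0.74 ± 0.67 SE, adjusted p = 0.835, edgeR). Only replicate 3 at 24 °C exceeded the lowest 28 °C library. miR-26b held 957, 1029, 491, 621 and 837 CPM at 24 °C and 3394, 888, 926, 1260 and 2213 CPM at 28 °C (−1.14 ± 0.76 SE, adjusted p = 0.696, edgeR). Hox-cluster miRNAs (miR-10 and 196) had 1 row higher and 5 lower. miR-10b-5p was counted in 2 libraries from 24 °C and 4 from 28 °C, and miR-10a-5p in 1 and 3.

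miRNAs of neighbouring organs varied between libraries within each temperature. The liver miRNA, miR-122, held 2075, 1170, 339, 463 and 494 CPM at 24 °C and 40.8, 3197, 927, 470 and 7498 CPM at 28 °C. The 28 °C libraries spanned the whole 24 °C range and beyond it on both sides (−1.42 ± 0.97 SE, adjusted p = 0.696, edgeR). The islet miRNA, miR-375, held 8385, 7142, 295, 1537 and 654 CPM at 24 °C and 3190, 1077, 1211, 1040 and 801 CPM at 28 °C, with replicates 1 and 2 at 24 °C highest (1.30 ± 0.88 SE, adjusted p = 0.696, edgeR). Of the pancreas list 3 rows were higher and 3 lower, and miR-216b and miR-217 were each counted in 3 libraries or fewer of the 10. The gut and epithelium list had 9 rows higher and 4 lower, 2 with an unadjusted p under 0.05. The zebrafish row of miR-192, made in the gut lining, held 57.2, 301, 742, 140 and 12.9 CPM at 24 °C and 0, 0, 0, 0 and 48.3 CPM at 28 °C, and it was called by voom (adjusted p = 0.0479) but not by edgeR (0.533). Summed over 4 rows named miR-192, all 10 libraries held reads and the groups overlapped, at 0.00200 to 0.140% of counts at 24 °C and 0.000222 to 0.0250% at 28 °C. miR-200a-3p was counted in 2 libraries from 24 °C and 1 from 28 °C, miR-141-3p in 2 and none, and ipu-miR-205 (named for a catfish) in none and 3. The striated-muscle list had 0 rows higher and 3 lower. Its main row, miR-1, held 4191 CPM in replicate 4 at 28 °C and at most 247 CPM in the other 9 libraries. The neural and sensory list had 2 rows higher and 1 lower, with miR-9-5p at 367 CPM in replicate 2 at 24 °C. The single gonad row, ssa-miR-202-5p, was counted in 2 libraries from 24 °C and 1 from 28 °C.

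The smallest p of all rows belonged to a row named after a human miRNA. hsa-miR-3150b-5p had 303 reads in 4 of 5 libraries from 24 °C and 0 reads at 28 °C. It held 146, 0, 5.17, 91.1 and 136 CPM at 24 °C (adjusted p = 0.233, edgeR). Over the pooled counts this was at least 193-fold more than at 28 °C, taking 3 counts as the limit for the 28 °C group. Without the deep replicate 8 at 28 °C it was at least 76.0-fold more. Both bounds cover counting error only, not the spread between libraries. The partner name of this row, hsa-miR-3150a-3p, was counted in 3 libraries at 24 °C, at 67.4 to 152 CPM, and in 3 at 28 °C, at up to 4.08 CPM. The predicted row chr13_8255 was counted in all 5 libraries at 24 °C and in 1 at 28 °C, and chr6_38657 in 3 and 2. Voom called chr13_8255 (adjusted p = 0.00994), which edgeR did not. miR-7146-3p was counted in 3 libraries from 24 °C and 1 from 28 °C. On the lower side hsa-miR-3182 and chr6_38287 were each counted in 3 libraries from 28 °C and none from 24 °C. mmu-miR-540-5p was counted in 2 libraries of each temperature, at up to 1036 CPM at 28 °C and 2.58 CPM at 24 °C, and miR-735-5p in 1 library from 24 °C and 2 from 28 °C.

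Of the tested rows, 8 were counted at 24 °C alone and 21 at 28 °C alone. Of the 8, 5 were counted in a single library, and in all 5 that library was replicate 8. Of the 21, 11 were counted in a single library, and in all 11 it was replicate 8, the deepest. At an equal depth the replicate 8 libraries also showed the most rows of their groups, 391 at 24 °C (lowest 217) and 407 at 28 °C (lowest 175). The part of these libraries in the rows counted at 1 temperature was not tested. Leaving out either one gave 0 called rows, but so did the full fit, so this cannot show their part. Rows with an unadjusted p under 0.05 (edgeR) were 34 in the full fit. They were 54 without replicate 8 at 24 °C and 56 without replicate 8 at 28 °C.

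Control spleens gave 0 of 364 rows between 24 and 28 °C (0%, edgeR), with 62 rows (17%) at an unadjusted p under 0.05, and 31 calls by DESeq2. The difference between temperatures was then compared between LPS and control spleens in the same model. This interaction called 0 rows (0%, edgeR), with 44 (12.1%) at an unadjusted p under 0.05, 31 calls by DESeq2 and 0 by voom. The DESeq2 calls included rows with very few reads. One was miR-141-3p, with a fitted log2 value of 39.3 and 6 reads in the 10 LPS libraries. The 5 interaction rows with the smallest p in edgeR are given by libraries with reads. The muscle miRNA miR-206-3p was counted in 2 libraries from 24 °C and 3 from 28 °C with LPS, and in 2 and 1 in controls (adjusted p = 0.0946, edgeR). miR-200a-3p, of the epithelial miR-200 family, was counted in 2 and 1 with LPS and in none and 3 in controls, at the same adjusted p. ssa-miR-30d-2-3p was counted in 3 and 5 with LPS and in 4 and 2 in controls, and miR-140-5p in none and 3 with LPS and in 1 and 1 in controls, also at adjusted p = 0.0946. miR-196a-5p was counted in none and 1 with LPS and in 1 and none in controls (adjusted p = 0.133, edgeR).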

How the data were processed

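Small RNA of spleens was sequenced in 30 libraries. Per the labels' protocols, 50 ng of RNA went into each library, with random bases in the adapters and 22 cycles of PCR. The authors deposited one table of read counts per row and library, 8866 rows, of which 1591 had a count. Tools listed by the submitters' processing notes are cutadapt 1.12, DESeq2 1.11.1, FastQC 0.11.5 and bcl2fastq. Not given in the sources used here are the aligner, counter, build and miRNA reference, and no removal of PCR copies is recorded.

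edgeR 4.0.16 (R 4.3.3) kept 364 rows with filterByExpr over the 6 groups (161 zebrafish names, 142 of other species and 61 of chromosomes). The rows left out held 0.212% of the counts of the 10 libraries. One model with a mean per group over all 30 libraries (TMM scaling, robust quasi-likelihood, 24 residual degrees of freedom) gave each contrast, with Benjamini-Hochberg adjustment over all rows. The common biological coefficient of variation was 1.79. Intervals are 95% intervals. Totals, rows at equal depth and list shares (log2 of percent plus 0.001) were compared by two-sided exact permutation (numpy 2.4.6). The closest of 20 within-group pairs of libraries had a chi-squared of 143 per degree of freedom. The alternatives were DESeq2 1.42.0, limma 3.58.1 voom, other scalings and filters, other sets of rows and libraries, a depth covariate, thinning, the replicate number as a term and each library left out. The fit was also run on simulated data with a coefficient of variation below 1.79. Being less variable than these libraries, they do not show which differences the fit could call here.

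The comparison, with its members taken by label, and the 17 lists were chosen with earlier results of these data known. Rows named are called rows, the 10 smallest p in each direction at a mean of 10 CPM or more, the 12 most abundant, 3 per list and 5 of the interaction. Rows outside that rule were chosen after their values were seen: let-7g, let-7h, oni-miR-150, oni-miR-214, ssa-miR-455-3p, mmu-miR-3963, miR-16b, miR-125b-5p, miR-126b-3p, miR-140-3p, miR-143, miR-146a, miR-146b, miR-181a-5p, miR-192, let-7d-3p, miR-214, miR-222a-3p and miR-451. Sequences of miRNAs and gene targets were not analysed here.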

Additional observations from a re-analysis of the deposited data

Results flagged for a closer look

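In each LPS group of 5, the highest and lowest library were checked for a wide gap to the others (Dixon's test at 95%). This was done over 102 sets of values, and 21 were marked. For normally distributed values the test marks about 1 in 20 sets. CPM, shares and totals were used unlogged and need not be normal, and a set with reads in 1 library alone is always marked. The number marked is therefore not set against that rate. Of the 21, 7 were replicate 8 at 28 °C. That library held 3903189 counts (others 263371 to 902746). It had 3.39% of counts in antiviral miRNAs (others 0.523 to 1.13%), 0.0139% in neural and sensory miRNAs and 0.00305% in gonad miRNAs (others 0). It also had 5056 CPM of miR-125b-5p (others 1212 to 1549), 116504 CPM of miR-21 (others 32487 to 55772) and 208 CPM of miR-140-3p (others up to 4.08).

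Other 28 °C libraries stood out once or more. Replicate 4 had 0.438% of counts in striated-muscle miRNAs (others up to 0.0140%), 338 CPM of miR-214 (others up to 57.1) and 183 CPM of ssa-miR-455-3p (others up to 41.1). Replicate 1 had 0.297% in pancreas miRNAs (others 0.106 to 0.141%) and 3190 CPM of miR-375 (others 801 to 1211). Replicate 5 had 15940 CPM of miR-143 (others 8158 to 10386).

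At 24 °C, replicate 6 had 313101 CPM of let-7a (others 90576 to 146367) and 67985 CPM of let-7b (others 26262 to 33142). Replicate 3 had 0.821% in epigenetic miRNAs (others 0.406 to 0.513%) and 63000 CPM of chr13_7690 (others 28096 to 35136). Replicate 2 had 0.0462% in neural and sensory miRNAs (others up to 0.000999%) and 0.0747% in gonad miRNAs (others up to 0.0135%). Replicate 1 had 2844 CPM of miR-146a (others 717 to 1082), and replicate 8 had 0.0333% in striated-muscle miRNAs (others up to 0.000287%). No row passed in edgeR for a temperature difference that differed between LPS and control spleens.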

How the results depend on the processing

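Between 24 and 28 °C with LPS, 0 rows were called by edgeR, 14 with DESeq2, 7 with voom and 1 with the 2 groups alone. In controls 0 rows became 31 with DESeq2 and 3 with no count filter, and in the interaction 0 became 31 with DESeq2, 4 with zebrafish rows alone and 4 with thinned libraries. The other settings gave 0, apart from the block and the left-out libraries given next. Same-numbered LPS libraries deviated together with r of −0.05, 0.24 and 0.11 for numbers 1, 2 and 8, and 2 of 3 matched their own number best. The bar for taking the numbers as pairs, an r over 0.1 for each, was not met, and whether they pair the samples is not known. The replicate block over all libraries gave 0 calls in each comparison, and the block over shared numbers gave 1 (let-7a, −1.29, adjusted p = 1.22e-05) with LPS and 2 in controls (miR-143 and miR-146b). With LPS the block over shared numbers kept only replicates 1, 2 and 8 of each temperature. It thus left out replicate 6 at 24 °C, the library of that group with high let-7a. Leaving out each library gave 0 calls with LPS, 0 to 4 in controls (4 without replicate 5 of the 24 °C controls) and 0 in the interaction. The difference in rows at equal depth, 11.2, ran from −16.65 to 45.85, turning without replicate 8 at 24 °C (−16.65) or replicate 1 at 28 °C (−12.15). Over the alternatives, 709 values of named rows kept their sign and side of the threshold, 7 newly passed it and 15 changed sign. Signs turned for miR-126b-3p (0.23 with voom, 0.19 with the replicate block), miR-125a (−0.17 with no count filter, −0.057 to 0.40 without 1 library), miR-92a-3p (0.083 with plain totals, 0.19 with the block over shared numbers), miR-462 (0.089 with the depth covariate, −0.95 to 0.21 without 1 library) and miR-21 (−0.015 with voom, −0.24 with no count filter, −0.35 to 0.57 without 1 library). The cause was not tested. Depth limits rows near 10 CPM, where a count of 0 is uninformative in the shallow libraries.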
